A study of Mus musculus with 16 samples.

Results

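Imprinted genes are expressed from 1 parental allele, and 10 of them that act on growth and cell fate are described here in mouse neural stem cells: Cdkn1c, Igf2, H19, Meg3, Dlk1, Peg3, Plagl1, Grb10, Ndn and Mest. They were picked by name, as imprinted genes with known roles in growth and fate, and with their levels in the labelled batches already known. All 10 were found by symbol among the 57132 genes of the count tables. The study asked what an agent called TAPIR does to neural stem cells kept in self-renewing conditions, written GF in the labels. Total RNA from 6 libraries labelled gRNA (with TAPIR) and 6 labelled control (without it) was sequenced after removal of ribosomal RNA, and each of 2 labelled batches held 3 libraries of each group. Neither a guide target nor the mouse strain, the age or the origin of the cells is given in the labels, so no targeted gene could be checked. Ribosome footprints of the same kind of cells were not analysed here, because neither the files nor the annotation tables used here pair their transcript identifiers with genes.

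Imprinting is set in the germ line by DNA methylation at control regions, and zinc finger proteins such as ZFP57 keep it in place after fertilization. Paternally expressed genes in the set include Igf2, a growth factor of the insulin family, and Dlk1, Peg3, Plagl1, Ndn and Mest. Maternally expressed genes include Cdkn1c, which encodes the cyclin-dependent kinase inhibitor p57, and the long non-coding RNAs H19 and Meg3. Grb10, an adaptor that restrains insulin and IGF1 receptor signalling, is maternally expressed in most tissues and paternally in neurons. In the brain, p57 and necdin, the product of Ndn, are known for holding back proliferation, and Dlk1 and Igf2 for supporting neural stem cells. The counts do not separate the parental alleles, so every level below is the sum of both.

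The promoters of Ndn and Plagl1, which stood lower in batch 2 than in batch 1, are shown with those of Peg3, which stood higher, and of Mest, whose levels overlapped between the batches. Each line is the RefSeq window from 250 bases before to 50 bases after the annotated start, read 5′ to 3′ on the gene's strand, with CpG dinucleotides in capitals. Coordinates are those of the RefSeq table, on GRCm38.p6.
Ndn, chr7:62348027-62348326, plus strand: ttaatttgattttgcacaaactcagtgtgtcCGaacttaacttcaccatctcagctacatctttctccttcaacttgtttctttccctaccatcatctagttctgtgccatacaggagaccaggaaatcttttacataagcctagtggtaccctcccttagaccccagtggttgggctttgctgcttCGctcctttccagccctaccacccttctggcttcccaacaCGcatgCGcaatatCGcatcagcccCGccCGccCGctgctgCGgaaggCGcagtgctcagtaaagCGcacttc
Plagl1, chr10:13090582-13090881, plus strand: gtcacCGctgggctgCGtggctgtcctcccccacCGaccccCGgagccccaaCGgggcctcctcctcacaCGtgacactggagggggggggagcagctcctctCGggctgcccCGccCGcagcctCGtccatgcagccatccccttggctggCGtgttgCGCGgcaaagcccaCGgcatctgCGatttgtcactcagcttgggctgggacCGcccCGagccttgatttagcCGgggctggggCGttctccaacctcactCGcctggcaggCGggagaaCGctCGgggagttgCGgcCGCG
Peg3, chr7:6730370-6730669, minus strand: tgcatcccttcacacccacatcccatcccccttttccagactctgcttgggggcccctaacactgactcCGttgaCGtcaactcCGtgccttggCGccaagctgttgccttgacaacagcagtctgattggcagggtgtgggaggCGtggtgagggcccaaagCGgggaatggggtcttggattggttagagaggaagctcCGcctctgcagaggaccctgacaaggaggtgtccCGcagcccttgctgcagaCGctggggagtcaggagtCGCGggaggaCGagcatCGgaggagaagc
Mest, second annotated start, chr6:30737800-30738099, plus strand: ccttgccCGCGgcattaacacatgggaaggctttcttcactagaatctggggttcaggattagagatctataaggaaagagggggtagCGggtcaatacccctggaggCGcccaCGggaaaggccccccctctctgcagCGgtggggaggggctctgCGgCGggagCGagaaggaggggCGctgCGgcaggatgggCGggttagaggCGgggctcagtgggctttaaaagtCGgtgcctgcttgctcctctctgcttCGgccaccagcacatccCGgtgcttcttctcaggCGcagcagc
The Ndn window holds 11 CpGs, the Plagl1 window 26, the Peg3 window 13 and the Mest window 17, and the median of all 32851 promoter windows in the table is 7. The TGCCGC motif, the core of the ZFP57 site, was searched on both strands. It occurs 2 times in the Mest window and 1 time in the Plagl1 window, does not occur in the Ndn and Peg3 windows, and is present in 11.6% of all windows. The window of the first Mest start, which is not shown, holds 8 CpGs and 0 motifs. These letters describe the sequence and say nothing of methylation, which was not measured.

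Libraries held 8414028 to 19454390 gene counts, with a median of 14918917, and levels are given in CPM, counts scaled to the TMM-adjusted size of the library. They are not scaled to gene length and are compared between libraries. Sums over marker lists add CPM over genes, and so are led by the genes with the most counts. Between batches, the log2 levels of 17660 genes correlated at 0.857 to 0.874, against 0.976 and above within a batch. Library numbers used here follow sample order within each treatment and are not from the labels, so a shared number is not a labelled pairing. In batch 1, gRNA library 3 and control library 3 were closer to each other (r = 0.995) than any other pair of that batch (0.982 to 0.993). In batch 2, gRNA library 6 correlated at 0.976 to 0.987 and control library 6 at 0.976 to 0.979 with the rest, against 0.993 to 0.995 among the other 4 libraries. Reads outside annotated genes made up 8.83% to 12.7% of batch 2 libraries and 18.95% to 25.07% of batch 1 libraries. Markers of the labelled cell type, neural stem cells, were present in both batches. Summed over 12 markers, levels were 2166 to 2739 CPM in batch 2 and 2532 to 4127 CPM in batch 1. Of these 12, 1 was called higher in batch 2 by edgeR and 8 lower, beside 28.4% and 33.1% of all tested genes. Sox2, a core stem cell factor, averaged 146 ± 24.0 CPM in batch 2 and 154 ± 23.5 CPM in batch 1 (SD, n = 6 each). Nes, which encodes nestin, averaged 557 ± 32.3 CPM in batch 2 and 600 ± 138 CPM in batch 1 (SD, n = 6 each). Sample labels say neither what the batches stand for nor whether each library is a culture of its own. The p-values therefore measure how far these libraries differ, and that spread may be technical.

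No member passed the test between gRNA and control. Of 10 members, 8 had enough counts to be tested over both batches, and 0 of them passed, where 0% of all 17704 tested genes passed (edgeR quasi-likelihood test with batch as a term, Benjamini-Hochberg adjusted p = 0.9998 for each of the 8). Without adjustment, 230 genes had a p under 0.05 in that comparison, and 0 of them were members. DESeq2 and limma-voom also called 0 genes. Igf2 and Meg3 did not pass the filter on low counts. Between batches the same genes differed widely in level, and those differences are given as values without a test, because the genes were chosen with them known. Of the 8 tested members, 1 had all batch 2 libraries above all batch 1 libraries (Peg3) and 4 had all of them below (Cdkn1c, Plagl1, Grb10 and Ndn). Over all tested genes, the batches did not overlap in 41.6%, being higher in batch 2 in 17.3% and lower in 24.3%, and nothing is read from the members' count. Batch and everything else that differed between the 2 sets of libraries cannot be told apart, and in bulk RNA neither can fewer cells of a type and less RNA per cell.

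**Figure D1:**
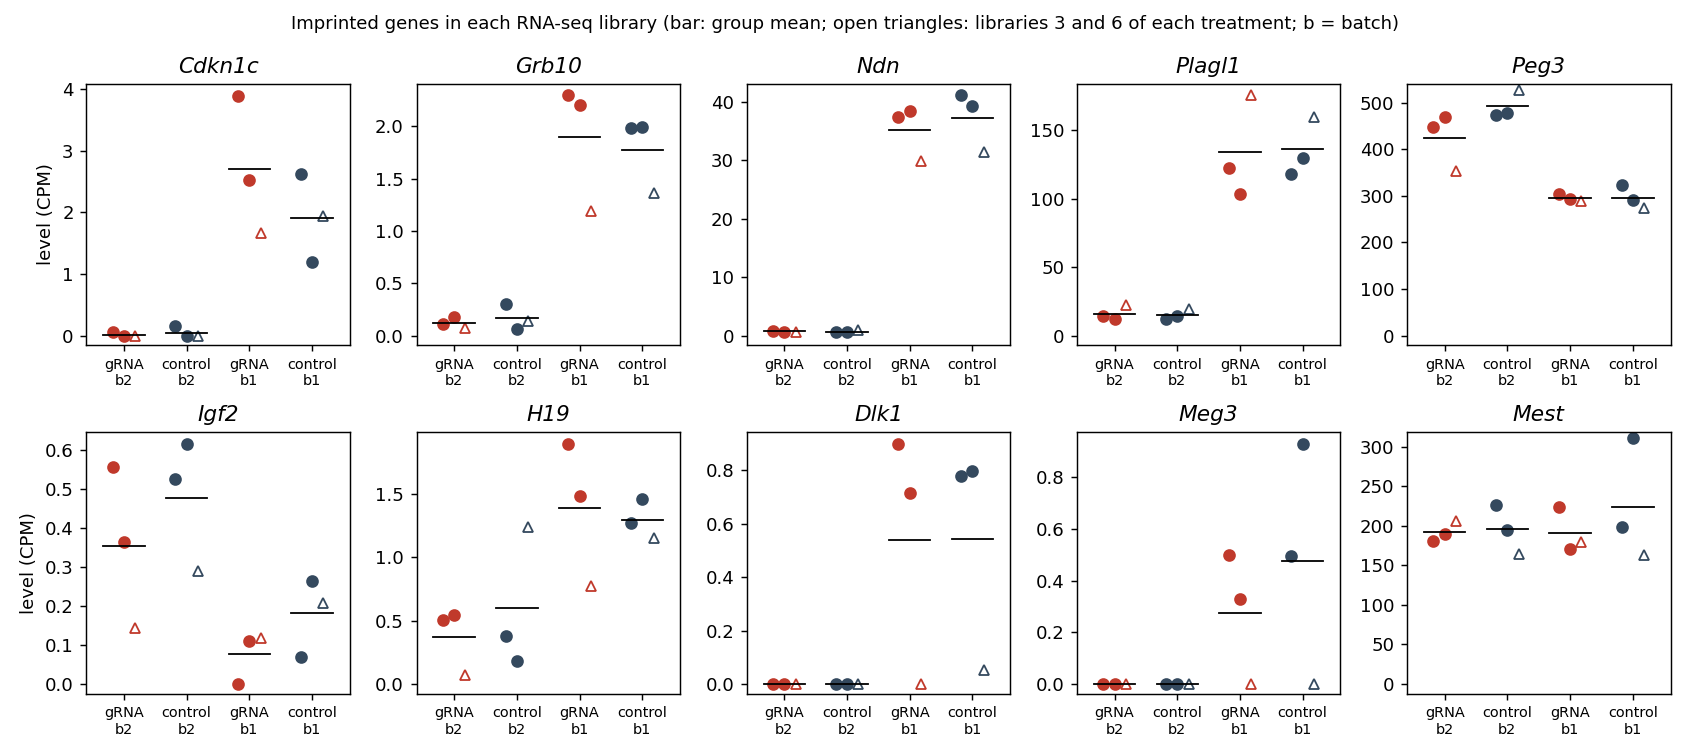
Levels of the 10 imprinted genes in CPM (vertical axis, linear, a separate scale for each gene) in gRNA and control libraries of batch 2 and batch 1 (horizontal axis). Each point is a library, horizontal bars are means of 3 libraries, and open triangles mark libraries 3 and 6 of each treatment. Ndn lies under 1 CPM in all batch 2 libraries and between 29.8 and 41.0 CPM in batch 1, and the colours (red for gRNA, blue for control) stay mixed within a batch for most genes.

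Cdkn1c and Ndn, which restrain cell division, were lower in batch 2. Cdkn1c was close to undetected there, and Ndn was low but present in every library. Cdkn1c had 1, 0 and 0 counts in the gRNA libraries of batch 2 and 2, 0 and 0 counts in the control libraries of batch 2. In batch 1 it had 39, 46 and 28 counts in gRNA libraries (3.89, 2.53 and 1.67 CPM), against 37, 9 and 37 counts in control libraries (2.62, 1.19 and 1.93 CPM). All batch 2 libraries lay below all batch 1 libraries. A library with a count of 0 allows a level of up to 0.18 to 0.22 CPM here, by the limit of 3 counts. Pooled over libraries, 3 counts in batch 2 against 196 in batch 1 gave a level 69.7-fold lower in batch 2, with a 95% interval of 23.5 to 341 that covers counting error alone. Between gRNA and control the groups overlapped in batch 1, and the fitted log2 fold change over both batches was 0.34 (SE 0.40, 95% interval -0.53 to 1.21). Nearly all of its counts come from batch 1, so this value is in effect a batch 1 value.

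Ndn, which encodes the growth suppressor necdin, had 0.894, 0.728 and 0.724 CPM in gRNA libraries of batch 2 and 0.602, 0.616 and 0.947 CPM in control libraries of batch 2. Its batch 1 values were 37.4, 38.4 and 29.8 CPM in gRNA libraries, against 41.0, 39.3 and 31.4 CPM in control libraries. The 2 batches were far apart, and gRNA and control libraries overlapped in each of them. Pooled counts were 69 in batch 2 and 3050 in batch 1, a level 47.1-fold lower in batch 2 (counting interval 37.1 to 60.8), and the fitted log2 fold change of batch 2 over batch 1 was -5.57 (SE 0.15). It was -5.64 without gRNA and control libraries 3, which were the lowest of batch 1, and -5.63 without gRNA and control libraries 6. The gRNA effect was -0.03 on the log2 scale over both batches (SE 0.14, interval -0.33 to 0.27), 0.14 in batch 2 (SE 0.33) and -0.07 in batch 1 (SE 0.15).

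The tested genes around Ndn remained detected in every batch 2 library. Mkrn3, a paternally expressed ubiquitin ligase gene close to Ndn, rose to 16.9 ± 2.24 CPM in batch 2, against 7.69 ± 0.845 CPM in batch 1 (SD, n = 6 each), with a log2 fold change of 1.13 (SE 0.13, edgeR adjusted p = 2.48e-06). Snrpn, which encodes a splicing protein, fell to 10.5 ± 0.801 CPM in batch 2, against 17.6 ± 1.65 CPM in batch 1 (SD, n = 6 each; log2 fold change -0.74, SE 0.10, edgeR adjusted p = 1.65e-05). Snhg14, the long RNA that runs on from Snrpn and overlaps Ube3a in antisense, fell by 1.13 on the log2 scale, and Atp10a by 1.20. Ube3a fell by 0.48. Peg12 fell by 0.38, a call that was lost without control library 2 or 3 or without libraries 3 of both treatments (adjusted p = 0.091, 0.068 and 0.087). In all, 6 of the 8 other listed genes of the domain were tested and 6 passed in edgeR's test, 1 higher and 5 lower in batch 2, where 61.4% of all genes passed, 28.4% higher and 33.1% lower. Magel2, the neighbour of Ndn that encodes another MAGE protein, averaged 0.167 counts per library and was not tested. Reads of Snhg14 and Ube3a cannot be told apart where they overlap, because no source used here gives the strand setting of the counting.

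Cdkn1c lies in the domain of the long non-coding RNA Kcnq1ot1, which silences its neighbours on the paternal chromosome. Kcnq1ot1 fell to 62.5 ± 12.2 CPM in batch 2, against 88.7 ± 15.4 CPM in batch 1 (SD, n = 6 each), a log2 fold change of -0.51 (SE 0.14, edgeR adjusted p = 0.0062). Without libraries 3 it was -0.38 and did not pass (adjusted p = 0.059). Ascl2, a transcription factor gene known from the placenta, rose by 1.74 (SE 0.37) to 0.905 CPM in batch 2, against 0.258 CPM in batch 1. The other tested genes of the domain did not pass: log2 fold changes were -0.21 for Cd81, 0.14 for Nap1l4, 0.32 for Osbpl5 and 0.19 for Tnfrsf23. Nap1l4 passed without control library 2 (0.24, adjusted p = 0.025), and Osbpl5 without control library 3 (0.48, adjusted p = 0.048) and without libraries 3 of both treatments (0.65, adjusted p = 0.0055). So 2 of 6 tested neighbours of Cdkn1c passed (33.3%, beside 61.4% of all genes), 1 in each direction. The fitted changes of these 6 all lay between -0.51 and 1.74. Another 4 of the 10 listed neighbours were not tested. Their counts over batch 2 against batch 1 were 31 against 0 for Phlda2 and 7 against 1 for Kcnq1. They were 9 against 6 for Slc22a18 and 46 against 60 for Tspan32.

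Plagl1, a zinc finger transcription factor also called Zac1 that can arrest the cell cycle, was lower in batch 2 but remained well detected there. It had 14.1, 12.2 and 22.2 CPM in gRNA libraries of batch 2 and 12.6, 14.5 and 19.2 CPM in control libraries of batch 2. In batch 1 it had 123, 103 and 176 CPM in gRNA libraries, against 118, 130 and 160 CPM in control libraries. Libraries 3 of batch 1 and libraries 6 of batch 2, the libraries that stand apart, were the highest of their treatment in their batch. The log2 fold change of batch 2 over batch 1 was -3.10 (SE 0.18), -2.87 without libraries 3 and -3.33 without libraries 6. Between gRNA and control it was 0.01 over both batches (SE 0.16, interval -0.34 to 0.37), 0.07 in batch 2 and -0.02 in batch 1, and it took the opposite sign over both batches without either of those pairs (-0.01 without libraries 3 and -0.03 without libraries 6).

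Astrocyte markers moved with these 2 pairs of libraries. Summed over 6 markers, they reached 43.2 to 115 CPM in gRNA and 42.6 to 206 CPM in control libraries of batch 2, and 269 to 484 CPM in gRNA and 267 to 467 CPM in control libraries of batch 1. Libraries 6 held the highest sums of batch 2 and libraries 3 the lowest of batch 1. Gjb6, which encodes a connexin of astrocytes, was at 0 counts in batch 2, and Slc1a2, the astrocyte glutamate transporter gene, ran from 12.3 to 76.7 CPM in batch 2 and from 160 to 285 CPM in batch 1. Of 5 tested, Slc1a2, Aldh1l1 and Aqp4 fell in batch 2 and S100b rose, to 30.1 CPM in batch 2, against 9.38 CPM in batch 1. Of all genes, 61.4% passed between batches in edgeR's test, 28.4% higher in batch 2 and 33.1% lower. Gfap, which did not pass, had a median of 1.14 CPM in batch 2, with a range of 0.391 to 40.8, and of 14.7 CPM in batch 1. What part astrocyte-like cells had in the levels of Plagl1, Ndn and Cdkn1c was not tested.

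Markers of other cell types were also read. Beside their counts of genes called between batches, 61.4% of all genes passed edgeR's test, 28.4% higher in batch 2 and 33.1% lower. No change in a cell type is read from these counts. Neuron markers, 8 genes, summed to 615 to 773 CPM in batch 2 and 646 to 958 CPM in batch 1, and nearly all of that sum was Map2, at 659 CPM in batch 2 and 720 CPM in batch 1. Of the 6 that were tested, 4 fell in batch 2 and 1, Tubb3, rose. Tubb3 averaged 17.2 CPM in batch 2 and 3.30 CPM in batch 1, while the synaptic gene Syt1 averaged 0.844 CPM in batch 2 and 19.2 CPM in batch 1. Rbfox3, Snap25 and Dcx were the others that fell. Oligodendrocyte lineage markers summed to 125 to 261 CPM in batch 2 and 84.5 to 94.8 CPM in batch 1, with 2 of 3 tested genes higher in batch 2 and 0 lower, while Olig2, which neural stem cells in culture also express, averaged 211 CPM in batch 2 and 271 CPM in batch 1. Microglia markers stayed under 3 CPM in batch 2 and under 7 CPM in batch 1, and the 2 tested genes were both lower in batch 2. Markers of fibroblasts and meningeal cells, in which Igf2 is known to be abundant, summed to 73.5 to 148 CPM in batch 2 and 100 to 122 CPM in batch 1. Within that list Col3a1 and Twist1 were at 0 counts in batch 2 and Dcn was at 0 counts in batch 1, and 2 of 3 tested genes (Pdgfra and Col1a1) rose in batch 2 and 1 (Foxc1) fell. Col1a1 reached 17.8 CPM in 1 control library of batch 2 and at most 4.92 CPM in its gRNA libraries, and averaged 1.89 CPM in batch 1. Endothelial markers summed to 7.27 to 26.1 CPM in batch 2 and 5.84 to 10.8 CPM in batch 1. Of 4 tested, Flt1 rose to 7.23 CPM in batch 2, against 0.400 CPM in batch 1, and Tek and Pecam1 fell. Embryonic stem cell markers summed to 23.2 to 41.3 CPM in batch 2 and 20.6 to 36.3 CPM in batch 1, with 1 of 3 tested genes higher and 1 lower. Mural cell markers summed to 141 to 200 CPM in batch 2 and 147 to 229 CPM in batch 1. Behind these like sums, Acta2 fell to 0.544 CPM in batch 2, against 107 CPM in batch 1, Cspg4 rose to 171 CPM in batch 2, against 75.4 CPM in batch 1, and Rgs5 fell, out of 4 tested. The part of these markers, and of the share of reads outside genes, in the levels of the members was not tested.

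Grb10, the adaptor that binds activated insulin and IGF1 receptors, had 2, 3 and 1 counts in gRNA libraries of batch 2 and 4, 1 and 2 counts in control libraries of batch 2. Its batch 1 values were 23, 40 and 20 counts in gRNA libraries (2.30, 2.20 and 1.19 CPM), against 28, 15 and 26 counts in control libraries (1.98, 1.99 and 1.36 CPM). All batch 2 libraries lay below all batch 1 libraries, in which libraries 3 were the lowest of each treatment. Pooled, the level was 12.5-fold lower in batch 2 (counting interval 7.08 to 24.0), from 13 counts against 152. Ddc, the neighbour of Grb10 that encodes aromatic amino acid decarboxylase, fell to 0.161 ± 0.132 CPM in batch 2, against 1.68 ± 0.597 CPM in batch 1 (SD, n = 6 each; log2 fold change -3.30, SE 0.43, edgeR adjusted p = 1.17e-05). The gRNA effect on Grb10 over both batches was 0.02 on the log2 scale (SE 0.31, interval -0.65 to 0.68). Most Grb10 counts come from batch 1 and it was not tested in batch 2 alone, so this is largely a batch 1 value.

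Igf2, the ligand, was barely detected. It had 10, 6 and 2 counts in gRNA libraries of batch 2 and 7, 10 and 4 counts in control libraries of batch 2, and 0, 2 and 2 counts in gRNA libraries of batch 1 against 1, 2 and 4 counts in control libraries of batch 1. Batches overlapped at these counts, and Igf2 did not pass the filter for testing. The pooled level was 3.32-fold higher in batch 2, with a counting interval of 1.67 to 7.20, from 39 counts in batch 2 against 11 in batch 1. Igf2 and Peg3 were thus the members with a higher pooled level in batch 2 than in batch 1. The counting interval leaves out the spread between libraries, and this difference was not tested.

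H19, the non-coding partner of Igf2 that is expressed from the other parental allele, had 0.503, 0.546 and 0.072 CPM in gRNA libraries of batch 2 and 0.376, 0.185 and 1.24 CPM in control libraries of batch 2. In batch 1 it had 1.90, 1.48 and 0.776 CPM in gRNA libraries, against 1.27, 1.46 and 1.15 CPM in control libraries. Control library 6, with 17 counts, was the library of batch 2 that reached the batch 1 range, and gRNA library 6 had 1 count. The pooled level was 2.67-fold lower in batch 2 (counting interval 1.86 to 3.87). The gRNA effect over both batches was -0.17 on the log2 scale (SE 0.42, interval -1.07 to 0.73) and took the opposite sign, 0.29, without libraries 6.

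H19 is the precursor of miR-675 and Mest hosts miR-335 in an intron, so the seeds of these 2 miRNAs (bases 2 to 8, in capitals, RefSeq GRCm38.p6) are set side by side.
mmu-miR-335-5p: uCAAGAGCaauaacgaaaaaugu
mmu-miR-675-5p: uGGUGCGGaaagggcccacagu
mmu-miR-675-3p: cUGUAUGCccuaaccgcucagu
The 3 seeds differ from each other. Counts at the hairpin genes come from total RNA libraries, which are not an assay of mature miRNAs. Mir675 was at 0 counts in all 12 libraries, and Mir335, looked at after its values were seen, had 0 to 16 counts in batch 2 (39 in all) and 8 to 22 counts in batch 1 (89 in all).

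Other genes of IGF signalling were read as a list of 17, of which 11 were tested. In batch 2 against batch 1, 10 of the 11 passed edgeR's test (61.4% of all genes did), 3 higher and 7 lower, with a median log2 fold change of -0.45 against -0.03 over all genes. Igf2bp2 and Igf2bp3, which encode RNA-binding proteins that bind Igf2 mRNA, moved in opposite directions. Igf2bp2 rose to 109 ± 16.4 CPM in batch 2, against 25.6 ± 11.2 CPM in batch 1 (log2 fold change 2.07, SE 0.23), and Igf2bp3 fell to 7.27 ± 0.997 CPM in batch 2, against 66.5 ± 19.3 CPM in batch 1 (-3.19, SE 0.20; SD, n = 6 each). Igf1r, the receptor, rose by 0.37 (SE 0.11) and Igfbp5, a binding protein, by 1.05 (SE 0.25). The docking protein gene Irs1 fell by 1.68 and the binding protein gene Igfbp7 by 0.87. Irs2 fell by 0.47, and this call was lost without gRNA library 3, 4 or 5 or control library 1, 2 or 3 (adjusted p = 0.052 to 0.105). The calls of Insr, the insulin receptor gene, and Igfbp2, a binding protein gene, also depended on single libraries. That of Insr was lost without gRNA library 1 or 6 or any 1 of the 6 control libraries (adjusted p = 0.074 to 0.144), and that of Igfbp2 without gRNA library 1, 4 or 5 or control library 2, 4, 5 or 6 (adjusted p = 0.053 to 0.115). The count of 10 ran from 7 to 11 when 1 library was left out. Between gRNA and control 0 of the 11 passed (0% of all genes), the smallest unadjusted p being those of Igfbp5 (-0.40, SE 0.24) and Igfbp2 (-0.16, SE 0.18). Igf2r, singled out after its values were seen, is itself imprinted and encodes the clearance receptor of IGF2. It rose to 268 ± 26.3 CPM in batch 2, against 203 ± 26.1 CPM in batch 1 (log2 fold change 0.40, SE 0.09, SD, n = 6 each), and Airn, the non-coding RNA antisense to it, rose by 1.64 (SE 0.20). With the strand setting not known, reads of Igf2r and Airn cannot be told apart where they overlap.

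Dlk1 and Meg3 share a domain in which Dlk1, a transmembrane protein of the Notch ligand family, comes from the paternal and Meg3 from the maternal chromosome, and both were at 0 counts in all 6 libraries of batch 2. In batch 1 Dlk1 had 9, 13 and 0 counts in gRNA libraries, against 11, 6 and 1 counts in control libraries. Meg3 had 5, 6 and 0 counts in gRNA libraries, against 7, 7 and 0 counts in control libraries of batch 1. Within batch 1, libraries 3 of both treatments thus lacked them almost wholly, and 25 of 25 Meg3 counts came from the other 4 libraries. For a pooled ratio, batch 2 was set at the limit of 3 counts. On that basis Dlk1 was 14.2-fold lower in batch 2 (40 counts in batch 1) and Meg3 8.89-fold lower (25 counts). These ratios leave out counting error in batch 1 and the spread between libraries, so they are not lower bounds. The fitted log2 fold change of Dlk1 was -5.87 (SE 1.54, interval -9.36 to -2.39), and the batches overlapped for both genes. Rian, a further non-coding RNA of the domain, had 6, 14 and 3 counts in gRNA libraries, against 4, 9 and 1 counts in control libraries of batch 1, and 0 counts in batch 2. Zdbf2, an imprinted gene elsewhere in the genome, had 5, 14 and 1 counts in gRNA libraries, against 11, 5 and 0 counts in control libraries of batch 1, and 3 counts over batch 2. Rian and Zdbf2 were singled out after their values were seen. Rtl1 and Mirg, also listed in the Dlk1 domain, were at 0 counts in every library. The gRNA effect on Dlk1 was 0.09 on the log2 scale (SE 0.99, interval -2.17 to 2.34), so a change of several fold was not detectable at this depth. All Dlk1 counts come from batch 1, so this is in effect a batch 1 value.

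Peg3, a zinc finger protein gene that is paternally expressed and abundant in brain, was the tested member that stood higher in batch 2. It had 447, 469 and 354 CPM in gRNA libraries of batch 2 and 473, 478 and 529 CPM in control libraries of batch 2. Its batch 1 values were 304, 293 and 289 CPM in gRNA libraries, against 324, 290 and 274 CPM in control libraries. All batch 2 libraries exceeded all batch 1 libraries, and the log2 fold change of batch 2 over batch 1 was 0.63 (SE 0.08). Its neighbours were higher as well: Usp29 rose to 15.1 ± 2.11 CPM in batch 2, against 9.61 ± 3.02 CPM in batch 1 (log2 fold change 0.63, SE 0.20, edgeR adjusted p = 0.015), and Zim1 to 8.84 ± 2.42 CPM in batch 2, against 6.21 ± 1.17 CPM in batch 1 (0.51, SE 0.21, adjusted p = 0.0497; SD, n = 6 each). Leaving out a single library ended the Zim1 call for 10 of the 12 libraries, all but gRNA libraries 2 and 6. In those 10 fits the adjusted p was 0.054 to 0.120. The call was also lost without libraries 3 of both treatments (adjusted p = 0.162). Zim2 and Zfp264 of the same domain were at 0 counts in every library.

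Within batch 2, all gRNA libraries had less Peg3 than all control libraries. This was the case for 1 of the 4 members tested in batch 2 and 0 of the 8 tested in batch 1, where 5.16% and 5.03% of all genes had groups that did not overlap. The difference in batch 2 was -0.21 on the log2 scale (SE 0.12, interval -0.49 to 0.07, edgeR adjusted p = 0.998) and did not pass. It was -0.06 without gRNA and control libraries 6. In batch 1 it was 0.00 (SE 0.10), and the effect in batch 2 minus that in batch 1 was -0.22 (SE 0.16, edgeR adjusted p = 0.9999).

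Mest, which encodes a membrane protein with a hydrolase fold, was as abundant in batch 2 as in batch 1 within the spread of libraries. It had 181, 189 and 206 CPM in gRNA libraries of batch 2 and 227, 195 and 165 CPM in control libraries of batch 2. In batch 1 it had 224, 171 and 180 CPM in gRNA libraries, against 198, 311 and 163 CPM in control libraries. Control library 2 was the highest of all 12. The log2 fold change of batch 2 over batch 1 was -0.09 (SE 0.14, interval -0.39 to 0.21), and that of gRNA over control -0.13 (SE 0.14, interval -0.43 to 0.17). Copg2, a coat protein gene that overlaps the end of Mest in antisense, had 127 ± 7.14 CPM in batch 2 and 116 ± 10.3 CPM in batch 1 (SD, n = 6 each; log2 fold change 0.13, SE 0.07, edgeR adjusted p = 0.124). Without control library 2 it was 0.19 and passed (adjusted p = 0.021). The strand limit given for Snhg14 and Ube3a applies to Mest and Copg2 as well.

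**Figure D2:**
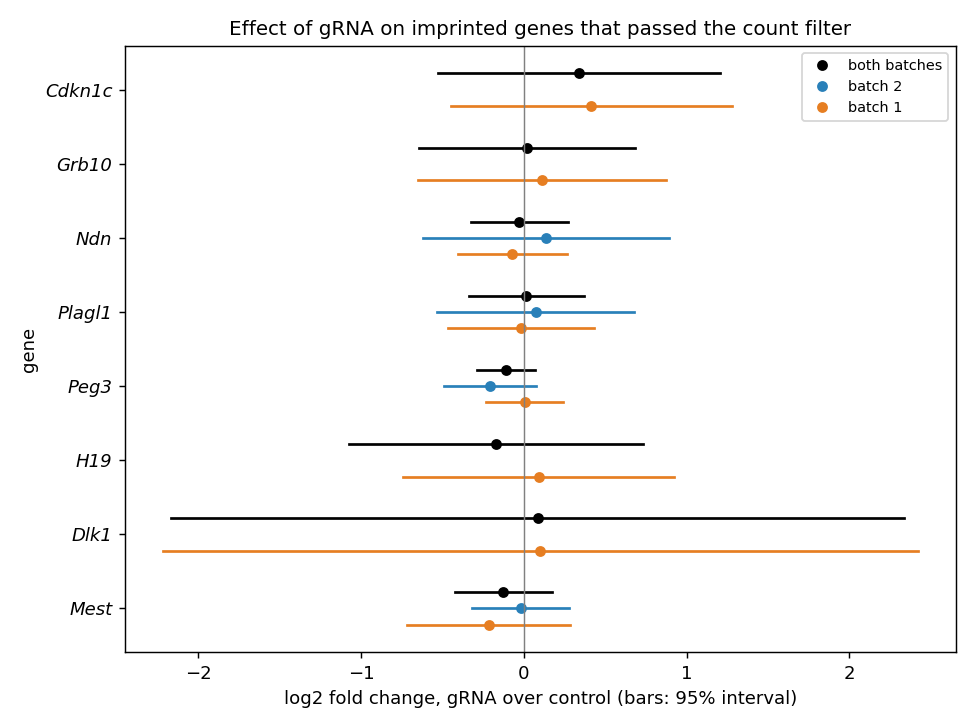
Fitted log2 fold changes of gRNA over control (horizontal axis) for the members with enough counts (vertical axis), over both batches (black), in batch 2 (blue) and in batch 1 (orange), with 95% intervals as bars. Every interval drawn contains 0, from the narrowest for Peg3 over both batches (-0.29 to 0.07) to the widest for Dlk1 in batch 1 (-2.22 to 2.42).

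The intervals set what the gRNA comparison could have shown. For Peg3 over both batches the interval ran from -0.29 to 0.07, for Ndn from -0.33 to 0.27 and for Mest from -0.43 to 0.17, all on the log2 scale. For Plagl1 it ran from -0.34 to 0.37. For the members with few counts it was wide, at -0.53 to 1.21 for Cdkn1c and -1.07 to 0.73 for H19. The difference of the effect between batches could be fitted for 7 members and passed for 0 of them (0% of 18279 genes, edgeR). Among these, Cdkn1c, H19 and Grb10 had too few counts to be tested in batch 2 alone. Their SEs here were 1.67, 0.88 and 0.80, so a difference could hardly pass for them and nothing is read from their result. In the separate fits, 0 of 4 members passed in batch 2 (0% of 15647 genes) and 0 of 8 in batch 1 (0% of 16988 genes), with 116 and 147 genes at an unadjusted p under 0.05.

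The other imprinted genes were read from 60 listed genes in named domains. Of these, 36 were tested, and between gRNA and control 0 passed (0% of all genes), 15 having a fitted change above 0 and 21 below, with a median of -0.02 against -0.01 over all genes. The smallest unadjusted p belonged to Ascl2, with 0.57 on the log2 scale (SE 0.36), and Snrpn, with 0.12 (SE 0.10). In batch 2 against batch 1, 23 of the 36 passed, or 63.9% beside 61.4% of all genes, 10 higher and 13 lower, with a median of -0.03 against -0.03 over all genes. A share so near the background is not a result about imprinted genes.

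**Figure D3:**
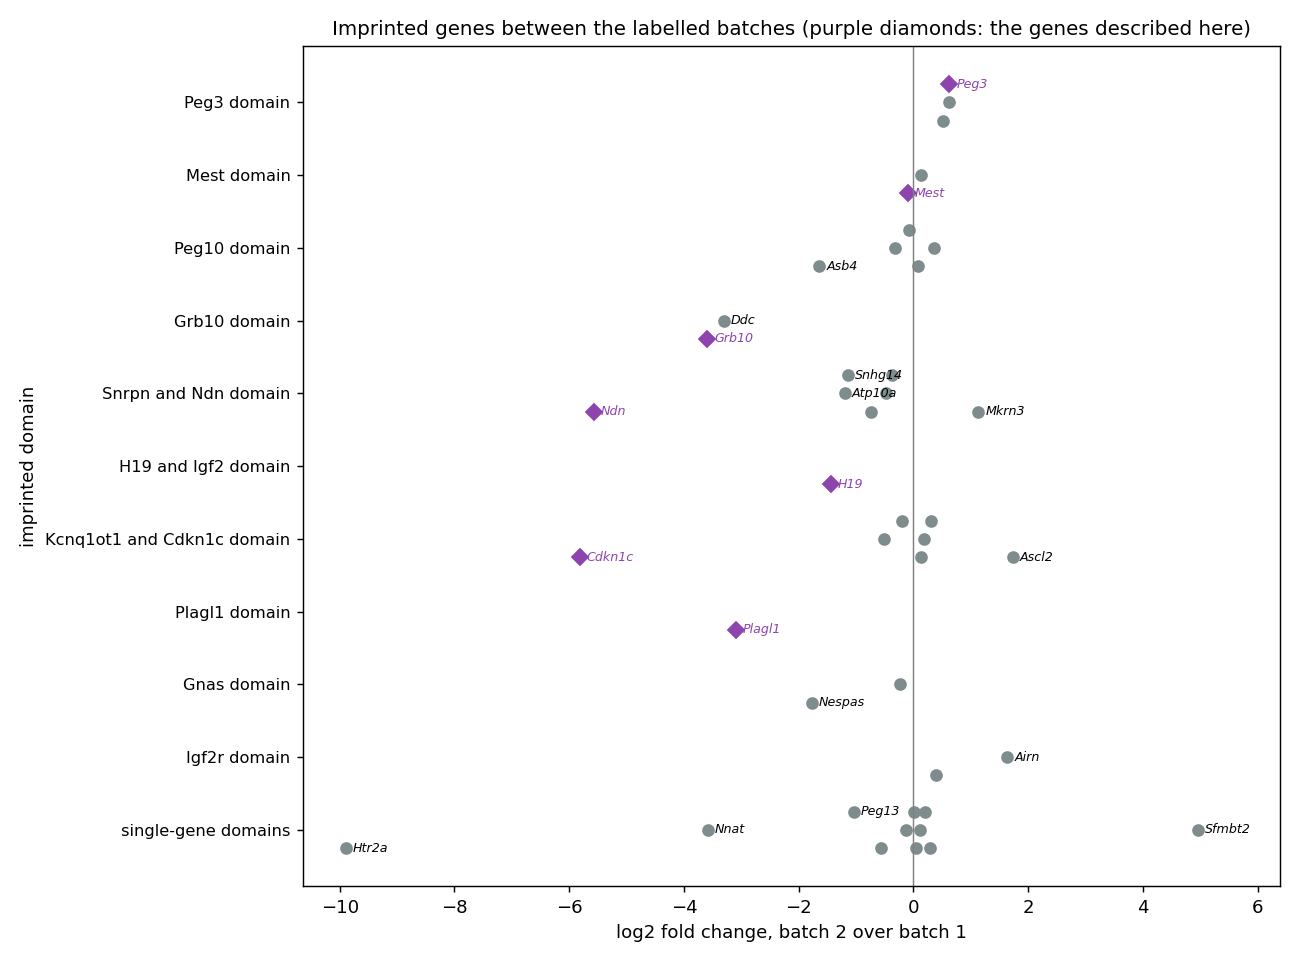
Fitted log2 fold changes of batch 2 over batch 1 (horizontal axis) for the 43 imprinted genes with enough counts and at least 1 count in batch 2, by imprinted domain (vertical axis). Purple diamonds are the genes described here and grey points the other imprinted genes, of which those beyond 1 on the log2 scale are named. Ndn at -5.57 stands apart from the other genes of its domain, which lie between -1.20 and 1.13, while Peg3 at 0.63 lies with its neighbours.

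Among the named imprinted genes outside the set, the largest rise was that of Sfmbt2, a Polycomb gene known from the extra-embryonic lineages, to 38.1 ± 5.57 CPM in batch 2, against 1.15 ± 0.474 CPM in batch 1 (log2 fold change 4.96, SE 0.21, edgeR adjusted p = 1.48e-10; SD, n = 6 each). Nnat, which encodes the membrane protein neuronatin, fell to 4.66 to 12.2 CPM in batch 2, against 80.2 to 128 CPM in batch 1 (log2 fold change -3.58, SE 0.20, edgeR adjusted p = 2.34e-09). Htr2a, a serotonin receptor gene for which imprinting has been reported, had 1 count over batch 2 against 1549 over batch 1, a pooled level 1652-fold lower with a counting interval of 296 to 65296. Nespas, an antisense transcript at Gnas, fell by 1.77 (SE 0.23), and the strand limit given for Snhg14 and Ube3a applies to it as well.

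Factors that set or keep imprints were read as a list of 16, of which 14 were tested. In batch 2 against batch 1, 5 passed (35.7%, beside 61.4% of all genes), 4 higher and 1 lower. Zfp57, whose protein protects imprints at TGCCGC motifs, rose to 31.1 ± 6.67 CPM in batch 2, against 13.2 ± 1.98 CPM in batch 1 (log2 fold change 1.23, SE 0.16). Dnmt3b, a de novo DNA methyltransferase gene, rose to 15.9 ± 2.23 CPM in batch 2, against 7.35 ± 0.624 CPM in batch 1 (1.11, SE 0.13; SD, n = 6 each). Zfp445, which acts with Zfp57, rose by 0.31 and the Polycomb methyltransferase gene Ezh2 by 0.22, a call that was lost for Ezh2 without gRNA library 2 or 3 (adjusted p = 0.063 and 0.067), while the demethylation enzyme gene Tet2 fell by 0.83 (SE 0.18). Between gRNA and control 0 of the 14 passed (0% of all genes), and Tet3 (-0.18, SE 0.09) and Dnmt3a (-0.13, SE 0.08) had the smallest unadjusted p.

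**Figure D4:**
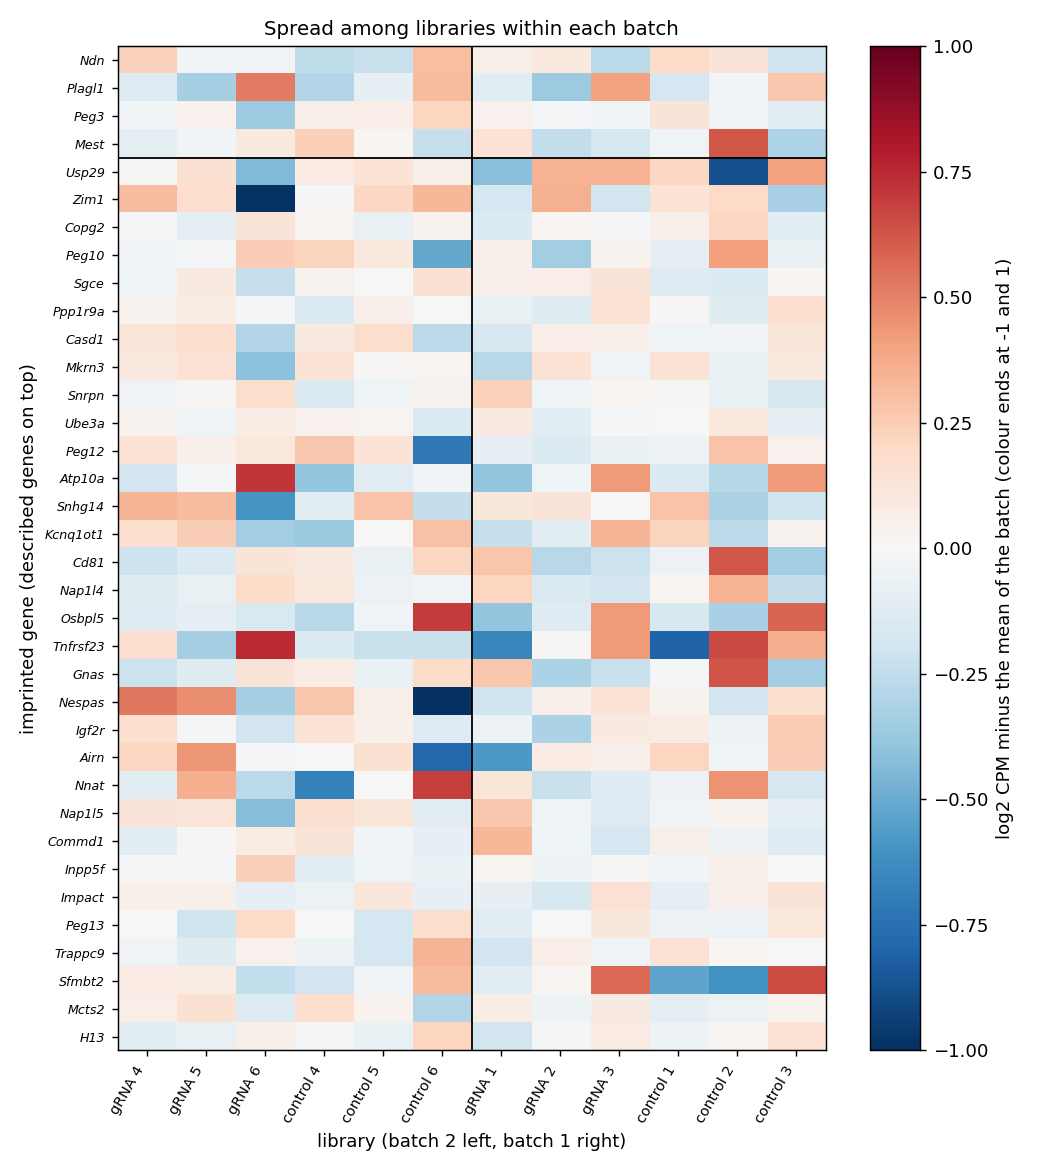
Log2 CPM minus the mean of the batch (colour, red above and blue below the mean, ends at -1 and 1) for 36 imprinted genes (rows) in each library (columns, batch 2 left and batch 1 right, gRNA before control within each). The 4 genes above the line are described here. Plagl1 is red in libraries 6 and 3 of both treatments, Peg3 is lowest in gRNA library 6, and Mest is highest in control library 2.

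For the 3 members of highest level, the genes most like them within the batches were looked up. Likeness was the smaller of the Pearson correlations of log2 CPM over the 6 libraries of batch 2 and over the 6 of batch 1, among 10333 genes of at least 5 CPM in both, and it is a description that libraries and their composition share. Mest was most like Mat2a, which encodes the enzyme that makes S-adenosylmethionine (r = 0.994 in batch 2 and 0.995 in batch 1), and Glrx3 (0.983 in batch 2 and 0.978 in batch 1). Plagl1 was most like Nr3c1, the glucocorticoid receptor gene (0.958 in batch 2 and 0.991 in batch 1), and Myof (0.953 in batch 2 and 0.966 in batch 1). Peg3 was most like Enah (0.973 in batch 2 and 0.834 in batch 1) and Katnal2 (0.856 in batch 2 and 0.834 in batch 1). Rank (Spearman) correlations in batch 2 were lower than these for Nr3c1 (0.714), Myof (0.886), Enah (0.771) and Katnal2 (0.714). For Mat2a and Glrx3 they were 1, and in batch 1 they were 0.943 to 1. The best of 10333 genes over 6 libraries can be high by the search alone, so nothing is read from the size of these values.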

How the data were processed

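Total RNA of 12 libraries was compared, 6 gRNA and 6 control, 3 of each per labelled batch. Per the submitters' processing notes, RNA-seq processing used HTSeq, STAR, Trimmomatic and SAMtools on GRCm39. Neither their versions nor the annotation or the strand setting are given in the sources used here. The unit of the deposited tables is the raw count per gene. HTSeq's 5 summary lines stayed out of library sizes. Symbols matched 90.8% of identifiers, and 0 of 66 library pairs were identical.

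Tests were run on these counts in R 4.3.3 with edgeR 4.0.16 (filterByExpr with a minimum count of 10, TMM, quasi-likelihood test, Benjamini-Hochberg adjustment at 0.05 over all tested genes), and the fits were tested on simulated data. Fold changes are log2, intervals are at 95%, and pooled ratios carry exact binomial counting intervals. Alternatives used DESeq2 1.42.0 and limma 3.58.1, other filters, no batch term, library totals and left-out libraries. Leaving out libraries 3 or 6 was chosen after seeing the data. Figures used Python 3.11.15, pandas 2.3.3 and matplotlib 3.10.9.

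The members and all lists were chosen with earlier results of these data known. Besides the members, the rule named from each list the 2 genes of smallest p for gRNA and the 4 largest called rises and falls between batches, 7 markers, domain neighbours averaging 10 or more counts, and 2 like genes for each of the 3 members of highest level. The deposited P-site table was not used.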

Additional observations from a re-analysis of the deposited data

Results flagged for a closer look

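Peg3 in gRNA library 6 lay 0.36 below the mean of its batch on the log2 scale (-0.36), against -0.03 for the next library of the 6 gRNA libraries. Its gap to that library took up 0.821 of the group's range, above the critical share of 0.625 for 6 samples. In all, 8 groups were screened (4 members in gRNA and in control). By chance alone, the critical share flags about 1 in 20 groups of like, normally spread values. The values here came from 2 batches and were centred on batch means. For Peg3 the SD of gRNA libraries was 60.9 CPM in batch 2 and 7.61 CPM in batch 1, so that rate may not hold. Over all genes, gRNA library 6 also stood apart from the rest of batch 2, and its part in the Peg3 value was not tested.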

How the results depend on the processing

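For members tested in the main fit of a comparison, no call depended on the processing. Of these, 0 passed between gRNA and control under DESeq2, limma-voom, other count filters or no batch term. The same held without any 1 library and without libraries 3 or 6 of both treatments. Members that did not pass the main filter of a comparison were not looked up in its alternatives. Without a count filter 1 gene passed over both batches, 1 in batch 1 and 42 in the difference between batches, against 0 in each with it. Batch 2 against batch 1 called 10208 to 12056 genes without libraries 3 or 6 of both treatments and 10528 to 12074 without any 1 library, and scaling by library totals moved Peg3 to 0.71 on the log2 scale. With library totals, the calls of Irs2 (adjusted p = 0.083), Igfbp2 (0.057), Insr (0.28) and Peg12 (0.074) were lost and Copg2 (0.0091) and Nap1l4 (0.033) passed.

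Signs of small gRNA effects (log2) did turn, and the cause was not tested. Over both batches, Dlk1 was -0.054 with DESeq2 and -0.27 with limma-voom, and Plagl1 -0.030 with limma-voom, -0.015 without the batch term, -0.013 without libraries 3 and -0.030 without libraries 6. Ndn was 0.0028 without libraries 3 and H19 0.29 without libraries 6. In batch 2, Plagl1 was -0.051 without libraries 6. In batch 1, Dlk1 was -0.0036 with DESeq2 and -0.30 with limma-voom, Peg3 -0.0073 with DESeq2 and -0.040 without libraries 3, and H19 -0.0037 with limma-voom. The difference between batches was 0.84 for H19 and -0.019 for Plagl1 without libraries 6.

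Leaving out 1 library at a time gave these ranges over both batches: H19 -0.35 to 0.19, Dlk1 -0.60 to 0.72, Plagl1 -0.10 to 0.10, Grb10 -0.13 to 0.21, Ndn -0.078 to 0.057, Mest -0.18 to 0.017 and, of the IGF list, Igfbp2 -0.27 to 0.023. In batch 2 the range was -0.22 to 0.24 for Plagl1 and -0.14 to 0.099 for Mest. In batch 1 it was -0.15 to 0.38 for H19, -0.64 to 0.76 for Dlk1, -0.049 to 0.072 for Peg3, -0.27 to 0.15 for Plagl1, -0.081 to 0.36 for Grb10, -0.19 to 0.029 for Ndn and -0.40 to 0.087 for Mest. For the difference between batches it was -3.10 to 1.37 for Cdkn1c, -1.13 to 0.41 for H19, -0.20 to 0.33 for Plagl1, -0.90 to 0.18 for Grb10 and -0.088 to 0.36 for Mest. Between batches, the range was -5.63 to -5.50 for Ndn, -3.22 to -2.99 for Plagl1, 0.60 to 0.70 for Peg3 and -0.14 to 0.079 for Mest.

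No paired analysis was possible because the RNA-seq labels carry no replicate numbers and the footprint libraries were not analysed here. All tests treated the libraries as unpaired. The planned footprint alternatives were therefore not run.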
